A study of Arabidopsis thaliana with 8 samples.

Results

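The plastid NDH complex was followed through 3 nuclear genes that the array measured with a feature of their own. They are NdhS (AT4G23890), a subunit of the complex, PIFI (AT3G15840), a protein needed for its activity, and CRR21 (AT5G55740), a protein that edits the transcript of its ndhD subunit. A feature is an element of the array with 1 deposited value per sample. The 3 features were taken because the platform annotation assigns each of them to exactly 1 of these genes, and they are 3 of the 692 features with 1 gene in that annotation. The table also holds 870 features with several genes and 1877 that are unnamed here. Total RNA of 8 Arabidopsis thaliana samples was measured, 4 of the psah2k double mutant and 4 of the wild type (WT), all of ecotype Columbia 0. The labels describe the mutant as lacking a pair of photosystem I proteins, but they name them in 2 ways, as H and K in the name of the line and as PSI-E1 and PSI-K in its description. None of the 5 genes PSAE1, PSAE2, PSAH1, PSAH2 and PSAK had a feature of its own, which left no targeted transcript to check the genotype with. Neither the organ nor the growth conditions are stated in the labels, nor whether each sample is a separate plant. The p-values therefore measure the spread between samples that could be technical repeats, and fewer cells of a type cannot be told apart from less RNA per cell.

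The NDH complex sits in the thylakoid membrane, takes electrons from ferredoxin and passes them to plastoquinone. It thereby drives a cyclic flow of electrons around photosystem I, and it binds photosystem I in a supercomplex. Its subunits are encoded partly in the plastid genome and partly in the nucleus, and many nuclear factors act only to build it or to process its plastid transcripts. Its activity is classically read as a rise of chlorophyll fluorescence after a light is switched off. That signal gave PIFI (post-illumination chlorophyll fluorescence increase) its name. CRR stands for chlororespiratory reduction.

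The arrays of the genotypes differed as wholes, and every value below stands against that. Counting features at 0, the median deposited intensity lay between 0.0506 and 0.0582 on the psah2k arrays, against 0.304 to 0.336 on WT arrays. The psah2k arrays listed 739 to 1014 features at 0, against 448 to 472 for the WT arrays. Because no scaling of the arrays is stated, the members are given in 3 ways. These are the deposited intensity, the percentile rank of the feature among all signals of its own array (0 to 100), and the log2 fold change after the arrays were quantile normalized. The rank and the fold change answer only whether a feature moved relative to the rest of its array.

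NdhS, a subunit at the stromal face of the complex where ferredoxin docks, gave a bright signal in both genotypes. Its deposited intensities were 8.66, 8.42, 5.23 and 5.73 on psah2k arrays 1 to 4, against 6.85, 6.95, 5.06 and 5.27 on WT arrays 1 to 4. The means were 7.01 ± 1.78 in psah2k and 6.03 ± 1.0 in WT (SD, n = 4 each). The ranges of the genotypes overlapped, and the exact permutation test gave p = 0.343 (two-sided, all 70 splits of the arrays). In both genotypes arrays 1 and 2 were brighter for NdhS than arrays 3 and 4, by 1.56 times in psah2k and 1.34 times in WT. Nothing in the labels says what sets these numbers apart.

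The place of NdhS within its array was nearly the same in all 8 samples. From 55 to 65 features were brighter than NdhS on the psah2k arrays, against 55 to 68 on the WT arrays. Its percentile rank was 98.3 ± 0.145 in psah2k and 98.2 ± 0.195 in WT (SD, n = 4 each). The difference of 0.0436 percentile points was smaller than the spread between arrays of 1 genotype (exact permutation p = 0.657). Near the top of the scale, where few features are left above it, the rank has little room to move.

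**Figure D1:**
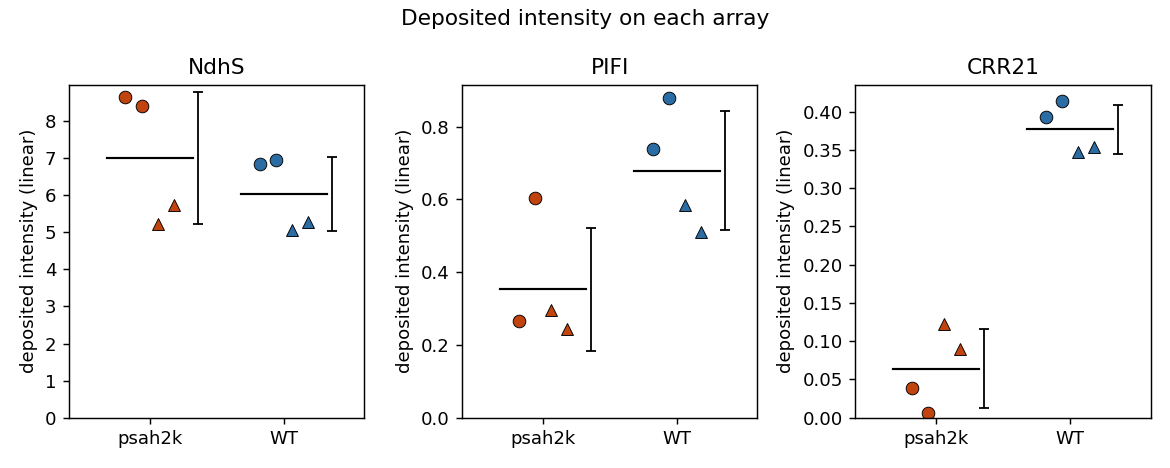
Deposited intensity (linear axis from 0) of NdhS, PIFI and CRR21 on each of 4 psah2k and 4 WT arrays. Circles are arrays 1 and 2, triangles arrays 3 and 4, horizontal lines the means and error bars the SD (n = 4). The genotypes overlap for NdhS and PIFI, while all 4 CRR21 values of psah2k (0.00596 to 0.123) lie below those of WT (0.347 to 0.415).

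After quantile normalization NdhS had a log2 fold change of −0.21 for psah2k over WT (SE 0.13, 95% interval −0.51 to 0.09, limma adjusted p = 0.202). It was not called. In the same fit 53.0% of the 2353 tested features were called, 26.3% of the tested features as higher and 26.6% as lower in psah2k. The interval holds 0 and also holds a fall of up to 0.51 on the log2 scale, so a small change was not detectable. The direction depended on the scaling. The log2 fold change of NdhS was 0.20 as deposited (limma adjusted p = 0.440), 1.42 after centring on the upper quartile (adjusted p = 0.000154) and 2.13 after centring on the median (adjusted p = 1.98e-05). Under these last 2 scalings 24.1% and 34.7% of tested features were called higher. Both divide each array by a value of its own distribution, and that value was lower in psah2k. As multiples of the array median, NdhS stood at 164, 166, 93.4 and 98.4 on psah2k arrays 1 to 4. It stood at 20.6, 20.7, 16.7 and 17.3 on WT arrays 1 to 4. These multiples use the median with features at 0 counted. The median centring left values of 0 out, so the multiples do not match the 2.13 above.

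PIFI, a nuclear-encoded plastid protein that is not a subunit of the complex but is required for its activity, had a lower mean intensity in psah2k on the deposited scale. Its intensities were 0.266, 0.602, 0.297 and 0.245 on psah2k arrays 1 to 4, against 0.739, 0.880, 0.586 and 0.511 on WT arrays 1 to 4. Psah2k array 2 stood apart from the other psah2k arrays and reached into the WT range, and the other 3 lay below every WT array. The means were 0.352 ± 0.168 in psah2k and 0.679 ± 0.164 in WT (SD, n = 4 each), and the exact permutation test gave p = 0.0857. On this scale 64.8% of all features had every psah2k array below every WT array, so a lower deposited value was the usual case, and PIFI, with its overlap, was not among these features.

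Within the array, the mean rank of PIFI was higher in psah2k, but the difference did not pass the test. Its percentile ranks were 79.7, 87.9, 82.5 and 79.4 on psah2k arrays 1 to 4, against 78.7, 82.7, 74.6 and 69.5 on WT arrays 1 to 4. The ranges overlapped, and the difference of 5.96 percentile points gave an exact permutation p of 0.143. Every psah2k array exceeded the WT array of the same number, although same-numbered arrays are not known to be pairs. The difference was 5.50 points when only features above 0 on all arrays were ranked (exact permutation p = 0.371). It was 8.72 points when only features with 1 gene were (exact permutation p = 0.0571).

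The fold change of PIFI took either sign. It was 0.23 on the log2 scale after quantile normalization (SE 0.25, 95% interval −0.35 to 0.81, limma adjusted p = 0.464) and 0.21 after upper quartile centring (adjusted p = 0.502). As deposited it was −1.02 and passed the threshold as lower (limma adjusted p = 0.0204), where 73.0% of tested features did so. After median centring it was 0.92 and passed as higher (limma adjusted p = 0.0254), where 34.7% did so. The call of PIFI thus followed the scaling in both directions. Without psah2k array 2 the log2 fold change after quantile normalization was 0.07 (limma adjusted p = 0.805), and without WT array 2 it was 0.40 (limma adjusted p = 0.242).

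**Figure D2:**
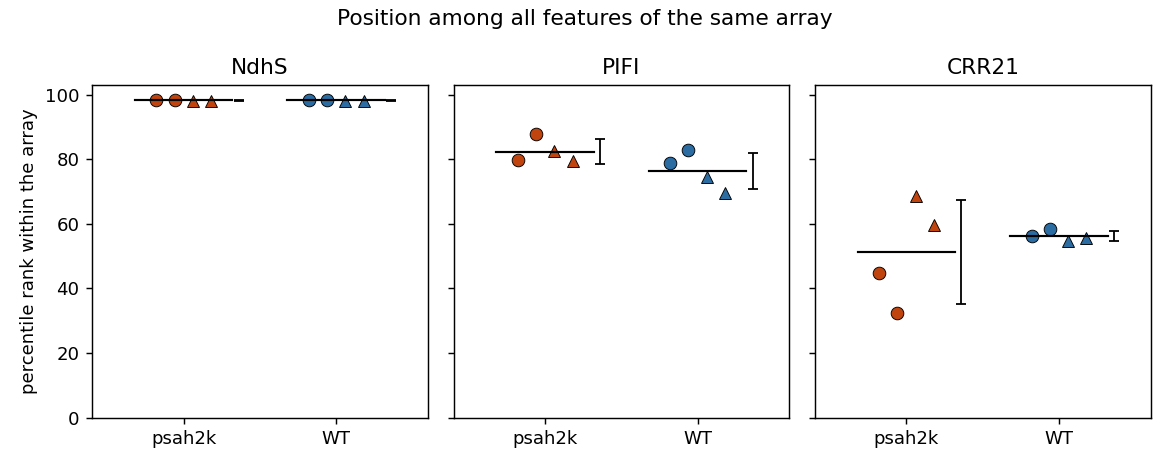
Percentile rank of NdhS, PIFI and CRR21 among all signals of the same array (axis 0 to 100, features at 0 sharing the lowest ranks), for 4 psah2k and 4 WT arrays. Symbols are as for the intensities, with lines at the means and bars for the SD. NdhS stays between 98.02 and 98.4, PIFI between 69.5 and 87.9, and CRR21 spreads from 32.3 to 68.6 in psah2k but only from 54.8 to 58.4 in WT.

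CRR21 is a pentatricopeptide repeat protein, one of the plant family that binds organelle RNA at defined sites, and it is required for the conversion of C to U at a site in the ndhD transcript. Among the 3 members its feature alone had no overlap between the genotypes on the deposited scale. The intensities were 0.0382, 0.00596, 0.123 and 0.0894 on psah2k arrays 1 to 4, against 0.392, 0.415, 0.347 and 0.353 on WT arrays 1 to 4. The means were 0.0641 ± 0.0521 in psah2k and 0.377 ± 0.0320 in WT (SD, n = 4 each). All 4 psah2k values were lower, and the exact permutation p of 0.0286 is the smallest that 4 against 4 arrays allow. The share of all features with the same pattern was 64.8%, so most of the array shared the pattern of CRR21.

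Relative to the rest of the array CRR21 showed no single direction. Its percentile ranks were 44.6, 32.3, 68.6 and 59.7 on psah2k arrays 1 to 4, against 56.3, 58.4, 54.8 and 55.6 on WT arrays 1 to 4. The WT arrays lay close together, and the psah2k arrays lay on both sides of them, 2 below and 2 above. The mean difference was −5.00 percentile points (exact permutation p = 0.629). It was −13.3 points when only features above 0 on all arrays were ranked (exact permutation p = 0.286) and −1.95 points when only features with 1 gene were (exact permutation p = 0.857). With numbers 1 and 2 alone the difference was −18.9 points, and with numbers 3 and 4 alone it was 8.92 points. This split was added after seeing the data. On psah2k array 2, only 96 features with a value above 0 were dimmer than CRR21, and 1014 features were listed at 0, so this value stood at the bottom of the measured range.

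After quantile normalization CRR21 had a log2 fold change of −1.01 (SE 0.73, 95% interval −2.72 to 0.69, limma adjusted p = 0.277). The interval spans more than 3 log2 units, the widest of the 3 members, and psah2k array 2 had much of the weight. Without it the log2 fold change was −0.25 (limma adjusted p = 0.561), and without psah2k array 3 it was −1.46 (limma adjusted p = 0.106). With only numbers 3 and 4 it was 0.23 (limma adjusted p = 0.427), and with only numbers 1 and 2 it was −2.31 (limma adjusted p = 0.111). As deposited the log2 fold change was −3.24 and passed the threshold (limma adjusted p = 0.00984), among the 73.0% of tested features called lower there. It missed the threshold after median centring (−1.31, limma adjusted p = 0.279) and after upper quartile centring (−2.01, limma adjusted p = 0.110).

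**Figure D3:**
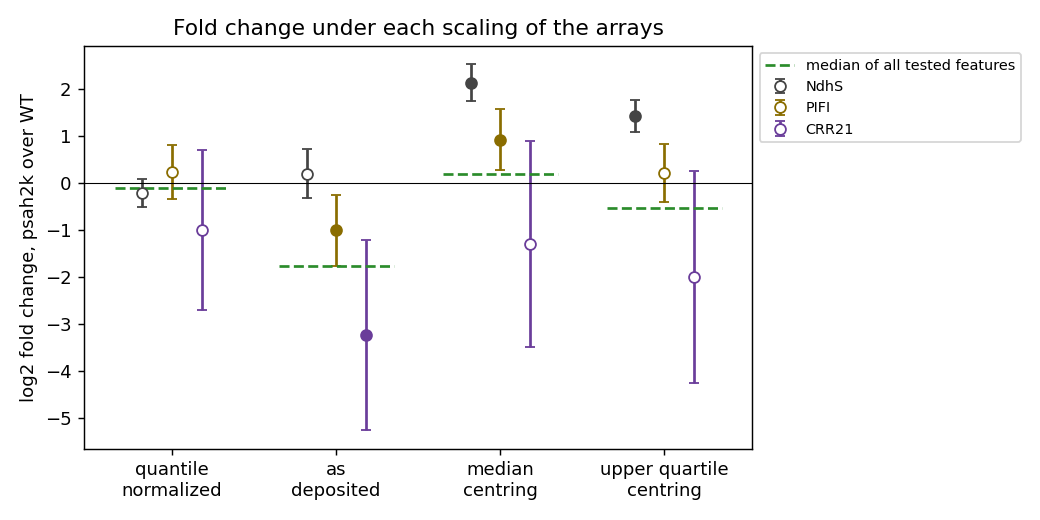
Log2 fold change of psah2k over WT for NdhS, PIFI and CRR21 under each of 4 scalings of the arrays, with 95% intervals from limma. Filled points passed an adjusted p of 0.05, and dashed lines mark the median of all 2353 tested features under the same scaling. No member passed after quantile normalization. PIFI passed as lower in the deposited values (−1.02) and as higher after median centring (0.92). NdhS passed as higher after median (2.13) and upper quartile centring (1.42), and CRR21 as lower in the deposited values (−3.24).

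The deposited ratio of psah2k over WT changed with brightness over the array. Tested features were ordered by their mean deposited log2 intensity over both genotypes and cut into 10 groups of 235 or 236. NdhS was in the brightest of these groups, whose median psah2k over WT ratio of deposited values was 0.20 on the log2 scale, NdhS itself being the median feature. PIFI was in the third group from the top, with a median of −1.19 and quartiles of −1.87 and −0.42, against its own −1.02. CRR21 was in the third group from the bottom, with a median of −2.38 and quartiles of −3.13 and −1.50, against its own −3.24. NdhS and PIFI thus lay between the quartiles of their groups, and CRR21 lay just below the lower quartile. After quantile normalization the medians of these groups were 0.07, 0.03 and −0.12, and 63.4%, 70.2% and 33.6% of their features were called, from the bright to the dim group.

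**Figure D4:**
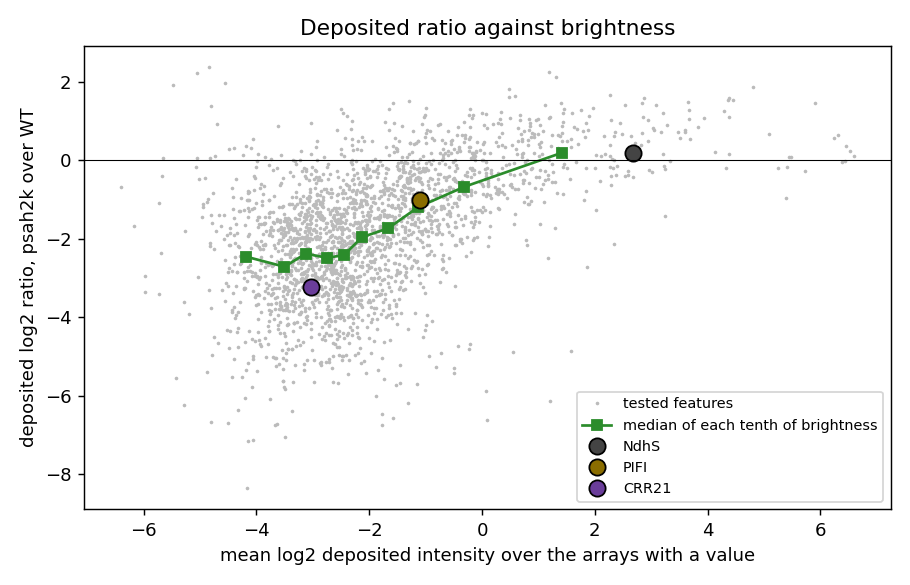
Deposited log2 ratio of psah2k over WT for each of 2353 tested features (vertical axis) against its mean log2 deposited intensity (horizontal axis). Squares join the medians of 10 groups of features ordered by brightness, from −2.45 in the dimmest group to 0.20 in the brightest, and large points mark NdhS, PIFI and CRR21. NdhS (0.20) and PIFI (−1.02) lie near the squares, and CRR21 (−3.24) lies below them.

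The members could also be set against each other within each array, where any constant factor of the array cancels. Such a ratio shows only unequal change between features and says nothing of which transcript is more abundant. The NdhS signal was 32.6, 14.0, 17.6 and 23.4 times the PIFI signal on psah2k arrays 1 to 4, against 9.27, 7.90, 8.64 and 10.3 times on WT arrays 1 to 4. All 4 psah2k ratios were higher, by 1.21 on the log2 scale, from 0.997 to 1.40 when any single array was left out. The ratio of NdhS over CRR21 was higher by 3.44 on the log2 scale, and that of PIFI over CRR21 by 2.23, each with no overlap between the genotypes. Without psah2k array 2, where CRR21 was at the bottom of the measured range, these differences were 2.42 and 1.02. Each of these 3 ratios had an exact permutation p of 0.0286, the smallest possible, and 0.0286 after Benjamini-Hochberg adjustment over the 3 ratios. That adjustment leaves equal p-values as they are. The ratio of PIFI over CRR21 follows from the other ratios, so the 3 are not separate results.

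How common such a separation was over the array depended on the numerator. With NdhS in the numerator, 71.7% of the 1805 other features with values on all arrays gave a ratio with every psah2k array above every WT array. With PIFI in the numerator the share was 27.1%. The CRR21 ratios differed more in numbers 1 and 2, in a split added after seeing the data. NdhS over CRR21 differed by 5.05 on the log2 scale with these alone and by 1.82 with numbers 3 and 4 alone, and PIFI over CRR21 by 3.73 and 0.72. Quantile normalization, which bends the scale differently at each brightness, removed the separation. NdhS over PIFI was then at −0.44 (exact permutation p = 0.114), NdhS over CRR21 at 0.80 (p = 0.429 by the same exact test) and PIFI over CRR21 at 1.24 (p = 0.257 by the same exact test).

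**Figure D5:**
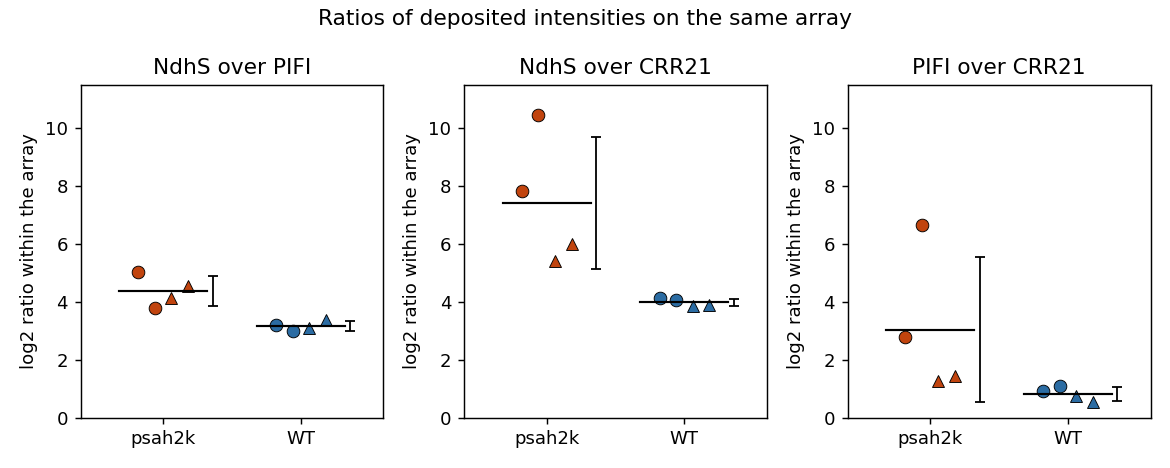
Log2 ratio of deposited intensities of 2 members on the same array (vertical axis), for 4 psah2k and 4 WT arrays, with symbols, means and SD bars as for the intensities. In each panel all psah2k arrays lie above all WT arrays, with the widest spread in the ratios to CRR21, where psah2k array 2 is the highest at 10.5 (NdhS) and 6.66 (PIFI).

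Beyond the 3 members, little of the NDH pathway had a feature of its own. Of 67 listed genes for NDH subunits, assembly factors, RNA factors and other routes of cyclic electron flow, 7 had a feature with 1 gene, the members included. By list these were 2 of 20 nuclear subunits, 0 of 12 plastid-encoded subunits, 3 of 10 assembly and activity factors, 2 of 15 RNA factors and 0 of 10 genes of other electron routes. Another 2 features were shared with further genes and were not used. Of the 7, 4 had enough values for the fit, of which 0 were called higher and 1 lower, where 26.3% and 26.6% of all tested features were so called. The median log2 fold change of the 4 was −0.46, against −0.12 over all tested features and −0.32 over those with 1 gene. Unadjusted p was under 0.05 for the same 1 gene alone.

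That gene was Cpn60beta4, a plastid chaperonin subunit known for folding the NdhH subunit. Its intensities were 0.0394, 0.0721, 0.0342 and 0 on psah2k arrays 1 to 4, against 0.353, 0.383, 0.300 and 0.305 on WT arrays 1 to 4. All psah2k values were lower, and the log2 fold change after quantile normalization was −0.71 (SE 0.21, limma adjusted p = 0.0285), with psah2k array 4 left out as a value of 0. It was called lower under all 4 scalings, with a log2 fold change of −2.86 as deposited. Of 2353 tested features, 626 were called lower after quantile normalization, 396 after median centring and 790 after upper quartile centring. As deposited 73.0% of tested features were called lower, and 64.8% of all features had every psah2k array below every WT array, so the deposited values of Cpn60beta4 moved as most of the array did. The percentile rank, which keeps that value, was 38.1 ± 19.5 in psah2k and 51.7 ± 2.68 in WT (SD, n = 4 each), and limma on the ranks gave an adjusted p of 0.259. With each 0 raised to the lowest positive value on its array, the adjusted p of limma was 0.359. Without any single WT array it was between 0.0536 and 0.0745.

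The other 3 genes were at 0 on most arrays and had too few values above 0 for the fit. NdhN, a subunit of the stromal arm, was at 0.0906, 0, 0 and 0 on psah2k arrays 1 to 4, against 0.0149, 0, 0 and 0.0235 on WT arrays 1 to 4. The NdhN signal was thus at 0 on 5 of the 8 arrays, in both genotypes. OTP85, an editing factor of ndhD like CRR21, was listed at 0.000699, 0, 0.0250 and 0 on psah2k arrays 1 to 4 and at 0 on all WT arrays. CRR41, a factor in the assembly of the stromal arm, was at 0.175, 0.0613, 0 and 0.0498 on psah2k arrays 1 to 4 and at 0 on all WT arrays. On psah2k arrays 1, 2 and 4 its percentile ranks were 73.2, 53.2 and 46.2, so it missed the fit for lack of WT values. CRR41 was the 1 gene of the lists whose rank passed as higher in psah2k, by 39.3 percentile points (limma on ranks, adjusted p = 0.0342), among the 25.4% of all features that did so. Features at 0 share a rank set by how many they are, 10.7 to 14.7 on the psah2k arrays against 6.50 to 6.85 on the WT arrays. The rise of CRR41 and the 25.4% therefore include a shift that features at 0 on every array also have. CRR41 was at 0 on psah2k array 3, and its ranks on the other psah2k arrays lay above the rank shared at 0. It also passed as higher with a pseudocount (log2 fold change 2.75, limma adjusted p = 0.0344), among 778 features. With each 0 raised to the lowest positive value on its array it passed likewise (8.21, limma adjusted p = 0.0470), among 729. In both fits the WT values are only what was put in for 0, so the sizes depend on that choice.

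By percentile rank over the 8 arrays, the genes with a feature of their own that were most like each member were found by Euclidean distance. For NdhS they were AT4G32060, PRA1.B6 and AT4G19900, at a root mean square distance of 0.430, 0.433 and 0.460 percentile points per array. For PIFI they were AT3G20490, AT4G04370 and AT2G22890, at 4.25, 5.22 and 5.53 points. For CRR21 they were AT1G51550, AT4G00590 and AT4G40080, at 8.37, 8.46 and 8.47 points, so no such gene followed its uneven pattern closely.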

How the data were processed

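The deposited values are 1-channel intensities of 8 samples, on a linear scale from 0 to 100. Background treatment, scaling and the origin of the ceiling are not stated in the labels. Groups and numbers came from the sample titles. Features were named through the platform annotation and, for 690 of 692 features with 1 gene, the RefSeq table of TAIR10.1, which was used for names only. The members, the lists and the tests were chosen with earlier results of these data known.

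Values were log2 transformed, with 0 as missing, and quantile normalized, since array medians of the values above 0 spanned 2.14 log2 units. Features with at least 3 values per genotype (2353) were fitted by lmFit and eBayes of limma 3.58.1 under R 4.3.3, two-sided, with Benjamini-Hochberg adjustment over all of them and a threshold of 0.05. Percentile ranks and within-array ratios were compared by exact permutation over all 70 splits. The text names the members, every listed gene with a feature of its own, and the 3 features nearest to each member in rank. Alternatives covered scaling, values of 0, a pseudocount of 0.0156, filters, variance models, the replicate block and left-out arrays. The number of arrays limits the precision.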

Additional observations from a re-analysis of the deposited data

Results flagged for a closer look

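In 33 groups of 4 values, 4 values stood far from the other 3 of their genotype by Dixon's test. Chance flags about 1 in 20 such groups, but several of these groups are the same arrays on different scales, and with the other 3 values at 0 any positive intensity would stand apart, as for NdhN. The number found is therefore not set against chance. The PIFI intensity of 0.602 on psah2k array 2 was above the other psah2k arrays. Without that array the log2 fold change of PIFI was 0.07 in place of 0.23. NdhN on psah2k array 1 was at an intensity of 0.0906 and a percentile rank of 61.1, while its other psah2k arrays were at 0. OTP85 on psah2k array 3 was at 0.0250, above the other psah2k arrays at 0 or 0.000699.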

How the results depend on the processing

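Of 2353 tested features, 1246 were called, and the number stayed within 1.5 times of this under 20 of 23 alternatives. It was 1890 as deposited (172 higher, 1718 lower), 663 with numbers 1-2 and 3-4 averaged first and 820 with numbers 3 and 4 only. The split of higher and lower calls was 620 and 626 after quantile normalization, 817 and 396 after median centring, and 567 and 790 after upper quartile centring. The log2 fold change of NdhS turned positive as deposited (0.20), after median (2.13) and upper quartile centring (1.42), with each 0 raised to the array's lowest positive value (0.0341) and with a pseudocount (0.0340), and limma on ranks gave 0.0436 percentile points. NdhS passed the threshold as higher after both centrings. PIFI turned negative as deposited (−1.02) and with numbers 1 and 2 only (−0.0017), and passed as higher after median centring (0.92). CRR21 passed as deposited (−3.24) and turned positive with numbers 3 and 4 only (0.23). Leaving out single arrays called none of the 3 members. NdhS then lay between −0.29 and −0.16, PIFI between 0.07 and 0.40, and CRR21 between −1.46 and −0.25. The CRR21 rank difference was −18.9 points with numbers 1 and 2 and 8.92 with numbers 3 and 4, alternatives added after seeing the data, and −10.7 to 1.34 with single arrays left out. The ratios of NdhS over PIFI (−0.44), NdhS over CRR21 (0.80) and PIFI over CRR21 (1.24) lost their separation after quantile normalization. In numbers 1-2 and 3-4, a split also added after seeing the data, NdhS over CRR21 differed by 5.05 and 1.82. The cause was not tested. Cpn60beta4 kept its direction in all 18 alternatives that could test it and missed the threshold in 11.

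With the replicate block, 1087 features were called, and the log2 fold changes of NdhS, PIFI and CRR21 were −0.21, 0.23 and −1.01 (limma adjusted p = 0.230, 0.333 and 0.290). Deviations from the genotype mean correlated by 0.09, 0.13, 0.10 and 0.06 between same-numbered arrays over 1806 features. Each array correlated best with its own number, a hint from the data and not the design, so the numbers were not taken as pairs. Cpn60beta4 had a log2 fold change of −0.73 with the block (adjusted p = 0.0523). Rank and ratio differences with pairing equalled the unpaired ones, which is fixed by the balanced numbers. The same holds for the block estimates of NdhS, PIFI and CRR21, which had values on all arrays. The smallest possible paired exact p was 0.125.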
